A study of Mus musculus with 8 samples.

Results

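The genes described here mark B lymphocytes and the plasma cells that arise from them. Of 8 genes listed, 6 had a row among the 16650 genes of the deposited table: *Ms4a1*, *Cd79a*, *Cd79b*, *Cd22*, *Jchain* and *Ly6d*. *Ighm* and *Igkc*, which encode the constant regions of the IgM heavy chain and the kappa light chain, were not analysed here, and neither was any other immunoglobulin gene. The genes were selected on their values in these same livers, so the differences between genotypes are given for them as a description, without a test.

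Bulk RNA-Seq was performed on whole liver from 8 mice, 4 with floxed *Mfsd2a* alleles (*2afl/fl*) and 4 labelled *L2aKO*, in which Cre driven by the albumin promoter deletes *Mfsd2a* in hepatocytes. *Mfsd2a* encodes a transporter of lysophosphatidylcholine. All mice were placed on a NASH diet, high in fat and supplied with fructose in the drinking water, at 8 weeks of age and were 10 weeks old when the livers were perfused with PBS and taken at ZT4, and the study used males unless otherwise stated. The labels number the livers 1 to 4 within each genotype and do not say whether numbers were shared between litters or cages.

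B cells carry an antigen receptor made of a membrane immunoglobulin and the signaling pair CD79A and CD79B. CD20, the product of *Ms4a1*, sits beside the receptor on mature B cells and is lost when they become plasma cells, whereas the J chain joins secreted IgM and IgA into polymers. In a healthy liver B cells are scattered among the sinusoidal and portal leukocytes, and they become more frequent in several forms of steatohepatitis. In bulk tissue, more cells of a type and more RNA per cell cannot be told apart.

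The values are read counts divided by DESeq2 size factors, and summed to between 28937192 and 31718630 per liver. In the units of each library 1 read was worth 0.819 to 1.14, and all values of the 6 genes were whole multiples of it within 0.02 of a read. *Mfsd2a* itself did not follow the labels: it stood at 467, 1569, 299.6 and 513 in *2afl/fl* livers 1 to 4 and at 915, 721, 1422 and 1974 in the livers labelled *L2aKO*. A gene was called when the limma fit over all 16650 genes on log2(value + 1) gave an unadjusted p under 0.05 and its fold change reached the limit of the study's criterion. It called 349 genes (2.10%), 219 higher (1.32%) and 130 lower (0.781%) in livers labelled *L2aKO*, a split of 167 and 169 with quantile normalization. No gene had a Benjamini-Hochberg adjusted p under 0.05 in limma or in limma voom, against 581 and 555 genes at an unadjusted p under 0.05. The median log2 fold change over all genes was 0.00.

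The 4 B cell surface genes were sparse. *Ms4a1* stood at 4.25, 12.8, 10.2 and 19.2 in *2afl/fl* livers 1 to 4, and at 22.9, 18.8, 19.0 and 18.6 in the livers labelled *L2aKO*. The latter were close together, whereas the *2afl/fl* livers ran from the lowest liver of all 8 to one above 3 of the 4 labelled *L2aKO*, so the genotypes overlapped in *2afl/fl* liver 4. *Ms4a1* averaged 11.6 ± 6.18 and 19.8 ± 2.05 (SD, n = 4 per genotype), and its log2 fold change was 0.88 (SE 0.38).

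The low liver rested on few reads. *Ms4a1* had 4 reads in *2afl/fl* liver 1 (95% exact Poisson interval 1.09 to 10.2, counting error only) and 20 to 23 reads in the livers labelled *L2aKO*. Variance among the *2afl/fl* livers was 3.19 times that of counting alone, and among those labelled *L2aKO* 0.205 times. *Ms4a1* was the only one of the 6 genes to meet the criterion, beside 1.32% of all genes in that direction. With 1 liver left out, it met the criterion in 2 of 8 fits. Without *2afl/fl* liver 1 the log2 fold change was 0.51. Nothing is read from *Ms4a1* being the only one to meet the criterion, since the genes were chosen on this contrast.

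*Cd79a* and *Cd79b* encode the receptor's signaling chains. *Cd79a* was 10.6, 6.39, 15.9 and 10.5 in *2afl/fl* livers and 17.4, 14.7, 9.51 and 16.7 in those labelled *L2aKO*, with means of 10.9 ± 3.89 and 14.6 ± 3.58. *Cd79b* was 13.8, 16.0, 21.6 and 28.8 against 31.6, 36.0, 23.8 and 26.0, with means of 20.0 ± 6.68 and 29.4 ± 5.53. Both overlapped between genotypes. The log2 fold changes were 0.42 (SE 0.33) for *Cd79a* and 0.56 (SE 0.27) for *Cd79b*. For *Cd79b*, 3 of the 4 *2afl/fl* livers lay below every liver labelled *L2aKO*, and for *Cd79a* 1 did.

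*Cd22*, a sialic acid-binding inhibitory co-receptor, was 44.7, 28.7, 27.2 and 46.0 in *2afl/fl* livers and 40.3, 41.8, 52.3 and 49.2 in those labelled *L2aKO*. The *2afl/fl* livers split into a low pair (2 and 3) and a pair within the range of the other genotype (1 and 4). Means were 36.7 ± 10.1 and 45.9 ± 5.79, with a log2 fold change of 0.35 (SE 0.22).

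Summed over *Ms4a1*, *Cd79a*, *Cd79b* and *Cd22*, the values were 73.4, 63.9, 74.9 and 104.5 in *2afl/fl* livers and 112.3, 111.4, 104.7 and 110.6 in those labelled *L2aKO*. The highest *2afl/fl* liver, number 4 (104.5), and the lowest labelled *L2aKO*, number 3 (104.7), were nearly equal. The sums were thus barely apart, and each gene overlapped between genotypes on its own. Among all single genes, 1.12% had every liver labelled *L2aKO* above every *2afl/fl* liver. Nothing is read from the separation of the sums, since the genes were chosen on this contrast. The sums rest on 60 to 136 reads a liver, and *Cd22* contributed the most.

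**Figure D1:**
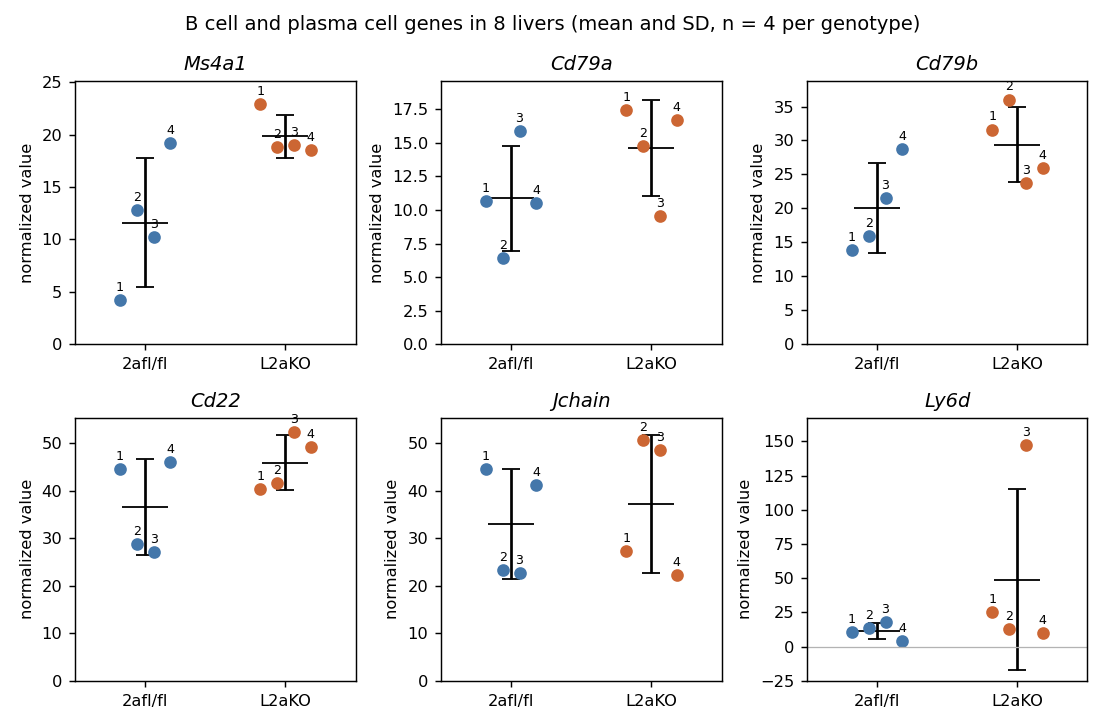
Normalized value of each gene in each liver, numbered by replicate, for *2afl/fl* (blue) and livers labelled *L2aKO* (orange), with the mean and SD of 4 livers in black. The axes start at 0 except for *Ly6d*, whose SD bar crosses 0. *Ms4a1* in livers labelled *L2aKO* spans 18.6 to 22.9, and *Ly6d* has 1 liver at 147.5.

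*Jchain*, the plasma cell member, was 44.7, 23.4, 22.7 and 41.2 in *2afl/fl* livers and 27.3, 50.8, 48.5 and 22.3 in those labelled *L2aKO*. Each genotype held 2 high and 2 low livers, and the ranges coincided almost fully. Means were 33.0 ± 11.6 and 37.2 ± 14.5, a log2 fold change of 0.15 (SE 0.32) that turned to -0.03 without *L2aKO* liver 2. Within genotypes *Jchain* varied 3.77 and 6.03 times more than counting alone.

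*Ly6d*, a small GPI-anchored protein of B lineage progenitors in bone marrow that squamous epithelia also express, was 10.6, 13.8, 18.2 and 3.84 in *2afl/fl* livers and 25.1, 13.1, 147.5 and 10.2 in those labelled *L2aKO*. A single liver, *L2aKO* number 3, set the mean of 49.0 ± 66.0 against 11.6 ± 6.03 in *2afl/fl*. The log2 fold change of 1.31 (SE 0.85) was 0.51 without that liver. Liver 3 had 155 reads of *Ly6d* (131.6 to 181.4), and it was the highest of all 8 for *Cd22* but not the highest of its genotype for *Ms4a1*, *Cd79a*, *Cd79b* or *Jchain*.

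**Figure D2:**
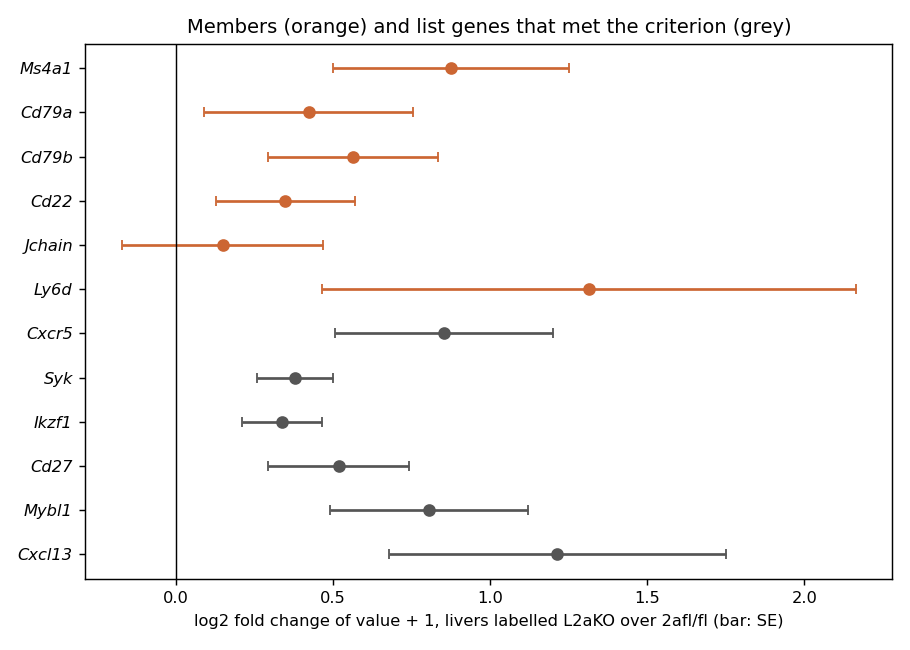
Log2 fold change of value + 1 between livers labelled *L2aKO* and *2afl/fl* (horizontal axis, bars show the SE) for the 6 genes (orange) and for the 6 other B lineage and recruitment genes that met the criterion (grey). All 12 points lie right of 0, from 0.15 for *Jchain* to 1.31 for *Ly6d*, the orange genes having been chosen for their values here.

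Levels can be compared between genes only per length. Per kilobase of exon in GENCODE, the *2afl/fl* means were 15.6 ± 8.11 for *Ly6d*, 14.0 ± 4.66 for *Cd79b*, 13.1 ± 4.60 for *Jchain*, 7.46 ± 2.67 for *Cd79a*, 7.27 ± 1.99 for *Cd22* and 1.88 ± 0.999 for *Ms4a1*. The first 3 lay within 1 SD of each other, as did *Cd79a* and *Cd22*. *Ms4a1* was lowest, and it has the longest exon union of the 6, at 6187 bases against 744 for *Ly6d*.

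On mm10 the genes lie on 5 chromosomes. *Cd79a* spans chr7:24897497-24901858 on the plus strand and *Cd22* chr7:30865404-30880342 on the minus strand. The others are on the minus strand, *Cd79b* at chr11:106311341-106314562, *Jchain* at chr5:88519809-88527897, *Ly6d* at chr15:74762056-74763567 and *Ms4a1* at chr19:11249679-11266149. GENCODE places an antisense gene across *Ms4a1* (*4930526L06Rik*) and one across *Cd22* (*Gm29439*). Whether reads were counted by strand is not given in the sources used here, so reads of those genes cannot be told apart from their partners'.

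The promoter windows of *Cd79a* and *Cd22* are shown because they held a match to a motif of B lineage transcription factors. The windows run from 250 bases before to 50 bases after a RefSeq start (GRCm38.p6), 5′ to 3′ on the gene's strand, with matches in capitals. That of *Cd22* is at an inner start, and 3 of the 6 genes had a window.
Cd79a chr7:24897247-24897546, plus strand: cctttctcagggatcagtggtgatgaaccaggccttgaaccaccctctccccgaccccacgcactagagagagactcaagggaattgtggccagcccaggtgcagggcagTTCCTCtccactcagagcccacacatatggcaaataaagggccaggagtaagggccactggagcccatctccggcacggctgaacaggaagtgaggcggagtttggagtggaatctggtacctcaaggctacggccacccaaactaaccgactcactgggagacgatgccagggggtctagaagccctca
Cd22 chr7:30878979-30879278, minus strand: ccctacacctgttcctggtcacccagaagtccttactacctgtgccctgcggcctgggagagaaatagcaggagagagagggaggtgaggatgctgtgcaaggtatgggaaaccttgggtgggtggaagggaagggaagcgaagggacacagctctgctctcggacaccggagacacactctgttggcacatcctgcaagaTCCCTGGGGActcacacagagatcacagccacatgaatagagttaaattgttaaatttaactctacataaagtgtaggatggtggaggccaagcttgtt
On both strands 4 motifs were searched, and no matches overlapped. The Ets motif GAGGAA, bound by PU.1, matched in *Cd79a* at positions -140 to -135 from the start, and 28.3% of all 32851 windows held it. The EBF1 motif, TCCC and GGGA with any 2 bases between them, matched in *Cd22* at positions -49 to -40, and 0.904% held it. The octamer ATGCAAAT (1.74% of windows) and the E-box CAGCTG (16.3%) matched in none of the 3 windows, *Jchain* included. A match is a string of letters and not evidence of binding.

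The other genes of the lineage came from 7 lists, drawn up with earlier results of these data known. Of 102 such genes with values, 6 met the criterion as higher and 0 as lower, while 1.32% and 0.781% of all genes did so. At an unadjusted p under 0.05 there were 8, and in limma voom 7 met the criterion, 6 higher and 1 lower, while quantile normalization gave 3 and 1 and leaving out *L2aKO* liver 2 left 3 genes. Log2 fold changes were positive for 73 of the 102, with a median of 0.12, against 50.1% of all genes and a median of 0.00.

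Among 22 further B cell surface genes, 18 were positive (median 0.22) and only *Cxcr5* met the criterion. *Cxcr5*, the chemokine receptor that brings B cells into follicles, was 8.51, 7.45, 3.41 and 4.79 in *2afl/fl* livers and 10.9, 11.5, 9.51 and 13.0 in those labelled *L2aKO* (log2 fold change 0.85, SE 0.35). The genotypes did not overlap, as for 1.12% of all genes in that direction, but the highest value came from 14 reads, and the call was lost without *2afl/fl* liver 3 (0.65) or 4, or *L2aKO* liver 1, 2 or 4. The most abundant genes of the list, *Cd38* (632 ± 33.7 and 721 ± 68.2), *Cd53*, *Cd180* and *Cr2*, did not meet the criterion, and *Cd38* and *Cd53* are made by other leukocytes too. Of these, *Cd38* missed only the fold limit (limma unadjusted p = 0.035, log2 fold change 0.19).

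*Syk*, the kinase that CD79A and CD79B recruit, was called among 22 signaling genes of which 17 were positive (median 0.14). It stood at 244.6, 166.1, 193.0 and 195.6 in *2afl/fl* livers and at 249.6, 278.4, 273.0 and 232.3 in those labelled *L2aKO* (0.38, SE 0.12). The genotypes overlapped through *2afl/fl* liver 1, and the call was lost without *2afl/fl* liver 2 (0.30). SYK is also active in macrophages. The kinase gene *Blk* was 21.5 ± 1.39 and 26.9 ± 3.97 (0.30, SE 0.22). The most abundant genes of the list, *Cd81* (6739 ± 424 and 6320 ± 264), *Pik3ap1*, *Lyn* and *Ralgps2*, did not meet the criterion.

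*Ikzf1*, encoding Ikaros, was the gene called among 18 transcription factors, 15 of them positive (median 0.15). It was 106.4, 102.2, 113.5 and 107.4 in *2afl/fl* livers and 119.9, 163.8, 127.5 and 135.6 in those labelled *L2aKO*, without overlap (0.34, SE 0.13). Which cells the *Ikzf1* reads came from was not tested. The call was lost without *2afl/fl* liver 2 (0.31) or *L2aKO* liver 2 (0.25), and with quantile normalization or array weights (0.32 each). *Pax5*, which maintains B cell identity, was 24.4 ± 5.40 and 33.1 ± 3.80. *Pou2af1*, the octamer coactivator, was 8.95 ± 2.19 and 13.5 ± 4.33, and neither met the criterion. *Ebf1*, encoding EBF1, stood at 4.25, 5.32, 3.41 and 5.75 in the *2afl/fl* livers and at 8.72, 3.28, 0 and 0 in those labelled *L2aKO* (log2 fold change -1.14, SE 0.70). Livers labelled *L2aKO* thus held both its highest and its lowest values. *Spi1*, encoding PU.1, ran from 58.5 to 83.4 and from 67.8 to 80.9, with a mean of 74.5 in each genotype. The most abundant of the list, *Bcl6* (3353 ± 526 and 2638 ± 1297), *Foxo1*, *Bach2* and *Id3*, did not meet the criterion.

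Plasma cell genes were mixed. Of 17 measured besides *Jchain*, 9 were positive and 8 negative, with a median of 0.01, and *Cd27* was called. *Cd27*, a receptor of memory B cells, plasma cells and T cells, was 26.6, 28.7, 19.3 and 27.8 against 48.0, 36.0, 30.4 and 34.4 (0.52, SE 0.22), without overlap. It did not meet the criterion without *2afl/fl* liver 1 or 3, without *L2aKO* liver 1 (0.39), 2 or 4, or with quantile normalization (0.47). The most abundant, *Edem1*, *Herpud1*, *Sdc1* and *Xbp1*, are expressed in hepatocytes. *Mzb1*, a chaperone for immunoglobulin assembly, had the highest log2 fold change of the 17 (0.63, SE 0.42). It was at 2.27 to 9.58 in *2afl/fl* and 5.57 to 10.9 in livers labelled *L2aKO*. At the other end, *Derl3* averaged 101.7 ± 54.5 and 56.3 ± 21.9 (-0.74, SE 0.47). *Slamf7* averaged 20.5 ± 3.48 and 13.2 ± 6.87 (-0.70, SE 0.34), and neither was called.

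The precursor and germinal center list had 7 genes with values, and *Mybl1*, a Myb family factor of germinal center B cells and testis, met the criterion. It was 10.6, 19.2, 17.0 and 25.9 in *2afl/fl* livers and 20.7, 27.0, 44.7 and 37.2 in those labelled *L2aKO* (0.81, SE 0.31), overlapping in 1 liver of each genotype, and was not called without *2afl/fl* liver 1 (0.59) or *L2aKO* liver 3 or 4. *Cecr2*, *Cd93* (491.7 ± 34.8 and 597 ± 55.5), *S1pr2* and *Dntt*, the most abundant of that list, were not called. Of these, *Cd93* missed only the fold limit (limma unadjusted p = 0.0063, log2 fold change 0.28). Which cells of the whole liver the *Cd93* reads came from was not tested. Of 16 genes for recruitment, survival and antibody transport, *Cxcl13*, the ligand of CXCR5, met it. *Cxcl13* was 3.19, 17.0, 12.5 and 13.4 against 31.6, 53.2, 13.3 and 15.8 (1.21, SE 0.54). *L2aKO* livers 1 and 2 were high and livers 3 and 4 within the *2afl/fl* range. The call was lost without *2afl/fl* liver 1 (0.75), 3 or 4, without *L2aKO* liver 1 or 2, and with quantile normalization (1.18) or eBayes without trend. *Pigr*, which carries polymeric antibody across epithelia, was 27798 ± 1972 and 28371 ± 2952, and like *Cxcl12*, *Fcgrt* and *Fcgr2b*, the next in abundance, it did not meet the criterion.

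**Figure D3:**
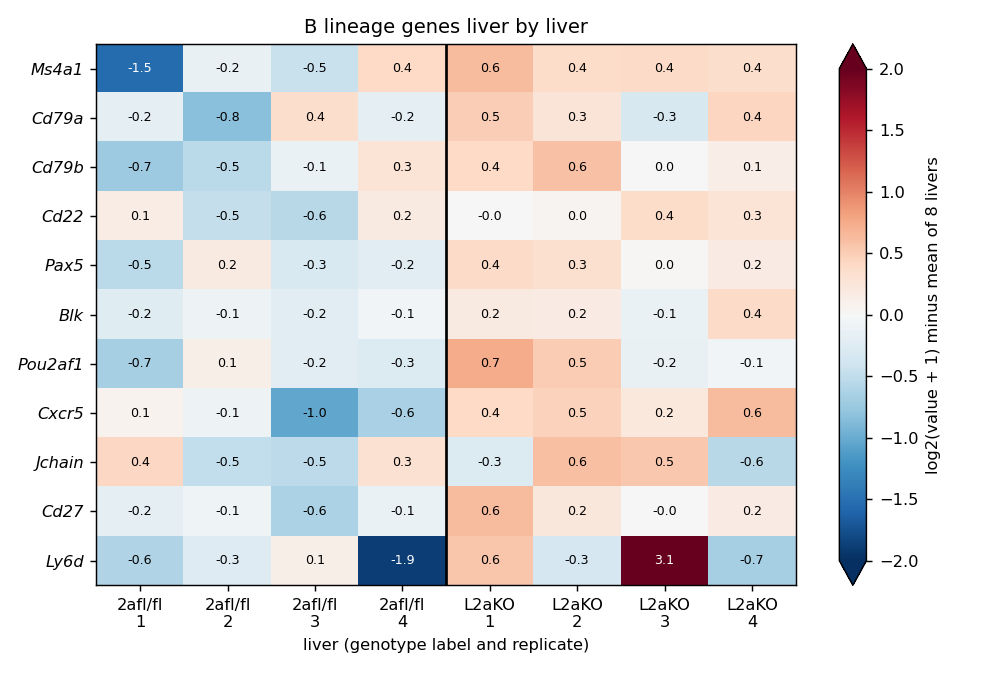
Log2(value + 1) of 11 B lineage genes in each liver, as the difference from the gene's mean over 8 livers (columns are livers, and the color scale ends at 2 in each direction). *Ms4a1* and *Cd79b* are lowest in *2afl/fl* liver 1, whereas *Jchain* and *Cd22* are not, and *Ly6d* is 3.07 above its mean in *L2aKO* liver 3.

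Liver by liver, the genes did not rank the mice alike. *2afl/fl* liver 1 was lowest of the 8 for *Ms4a1*, *Cd79b*, *Pax5*, *Mybl1* and *Cxcl13*, yet only 2 livers were higher for *Jchain*. The highest liver was *L2aKO* 1 for *Ms4a1* and *Cd79a*, *L2aKO* 2 for *Cd79b* and *Jchain*, and *L2aKO* 3 for *Cd22* and *Ly6d*. With genotype means removed, 5 of the 15 pairs of genes were positively correlated over the 8 livers, with a median r of -0.15. The strongest was *Ms4a1* with *Cd79b* (r = 0.71), followed by *Cd22* with *Jchain* (r = 0.61) and *Cd79a* with *Cd79b* (r = 0.43). These describe 8 livers with few reads per gene.

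**Figure D4:**
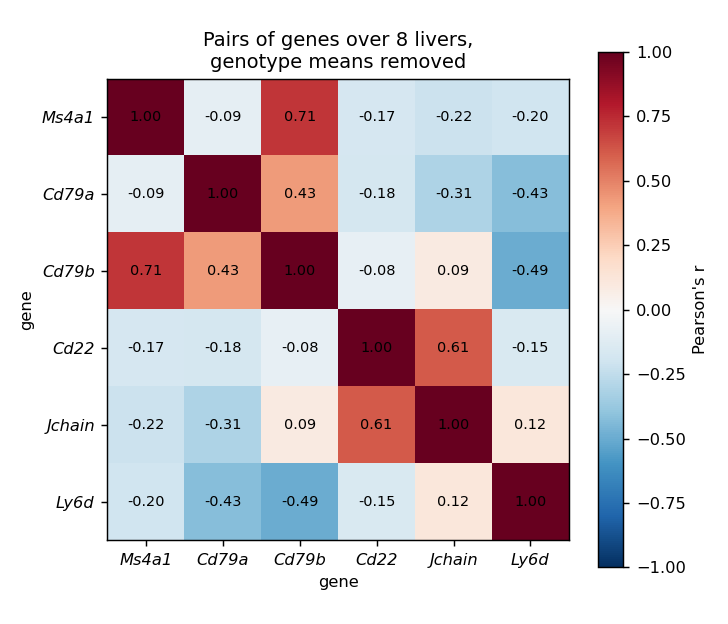
Pearson's r of log2(value + 1) for each pair of the 6 genes over 8 livers after genotype means were removed. Values run from -0.49 (*Cd79b* with *Ly6d*) to 0.71 (*Ms4a1* with *Cd79b*), and 10 of 15 pairs are negative.

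After genotype means were removed from log2(value + 1), the genes whose pattern over the 8 livers was most like the mean profile of the 4 surface genes, among 14206 with a mean of at least 10, were *Fgl1* (r = 0.99), *Fpgt* (0.99), *Zfp758* (0.98), *Itih4* (0.98) and *Adar* (0.97). None of the 5 is a B cell marker, and *Fgl1* and *Itih4* are secreted by hepatocytes. *Pax5* ranked 7390th (r = -0.01). For *Jchain* the top 5 were *Prmt1* (0.98), *Vamp1* (0.97), *Atp7a* (0.97), *Soat1* (0.96) and *Tent5a* (0.95), and for *Ly6d* *Rilp* (0.97), *Hist1h2bq* and *Hist1h2br* (0.97 each, with identical values), *Tmem253* (0.96) and *Atp5k* (0.96). These values were ranked over many genes and few livers and are given as a description.

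Markers of other cells were checked beside these genes. None of 15 T and NK cell markers met the criterion, and their summed level was 183.0 to 258.5 in *2afl/fl* and 185.2 to 279.0 in livers labelled *L2aKO*. All 14 macrophage and monocyte markers were positive (median 0.20) with 0 called, at summed levels of 8885 to 11153 and 10170 to 13062. Of 12 dendritic cell markers 2 were called, *Batf3* (6.63 ± 3.97 and 21.6 ± 3.03) and *Ccr7* (4.55 ± 4.09 and 9.33 ± 2.93), the latter also a gene of naive lymphocytes and called in 3 of the 8 fits without 1 liver (0.77 without *2afl/fl* liver 2). Of 7 red blood cell genes, *Hba-a1* (346.7 ± 43.9 and 523.9 ± 81.9), *Hba-a2* and *Hbb-bs* were higher, without overlap between genotypes for any of them. Platelet genes (4 measured, 3 positive, median 0.56, summed level 78.3 to 112.2 and 81.8 to 100.8) and neutrophil markers (6 measured, 5 positive, median 0.51, summed level 575 to 628 and 564 to 656) had 0 called. The part of residual blood in the B cell values was not tested. The 6 hepatocyte markers were positive with 0 called, at summed levels of 1.64e+06 to 1.96e+06 and 1.94e+06 to 2.07e+06. For *Ly6d*, 0 of 6 squamous and bile duct markers were called, and the defining squamous keratin genes were not analysed here. None of 12 Ly6 and uPAR family genes, *Ly6d* included, was called.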

How the data were processed

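Liver RNA libraries of 8 mice were mapped by the authors to mm10 with STAR 2.7.8a in Partek Flow 10, and the deposited table holds a signal per gene and liver, the read counts divided by DESeq2 size factors. It holds no comparison columns, and no column of values was left unused (0). About 89% of low values (88.6% to 89.3%) were whole multiples of 1 read, too few for a count test, so limma 3.58.1 (R 4.3.3; trend and robust) was fitted to log2(value + 1) of all 16650 genes, each with a mean of at least 1. Depth, from the value of 1 read, was 27465672 to 37201733 reads per liver. The labels do not say that the replicates are separate mice, but the paper describes its samples as biological replicates. The p-values set the difference between genotypes against the spread between livers within a genotype, moderated by the fit over all genes. The genes, lists and motifs were chosen with earlier results of these data known. The text names the 6 genes, list genes that met the criterion and the most abundant genes of each B lineage list (up to 4). It also names the 5 genes most like each profile and *Mfsd2a*. *Pax5*, *Blk*, *Pou2af1*, *Ebf1*, *Spi1*, *Mzb1*, *Derl3* and *Slamf7* were added after their values were seen. The 2 most abundant markers of each other cell type, which the rule also named, are given only within their lists. The fit was tested on simulated data, where the limit set for false calls was raised from 5% to 6% after a first run passed 5% by a small margin. Planned immunoglobulin shares could not be computed. Alternatives changed the pseudocount, filter, scaling, variance model, weights, block, criterion and tool, or left out 1 liver. A result that needs a withheld item is not reported here.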

Additional observations from a re-analysis of the deposited data

Results flagged for a closer look

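In 26 groups of 4 livers (13 genes), 3 had a highest liver whose gap to the next took up more of the group's range than Dixon's 95% limit, which chance passes in about 1 of 20 groups. *Ms4a1* was 22.9 in *L2aKO* replicate 1, with the other 3 livers close together at 18.6 to 19.0, so the gap is small in absolute size. *Ly6d* was 147.5 in *L2aKO* replicate 3. *Mfsd2a*, the deleted gene, was 1569 in *2afl/fl* replicate 2.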

How the results depend on the processing

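Over all genes, the count meeting the criterion went from 349 to 229 with a mean of at least 10, to 581 with no fold limit and to 0 with an adjusted p under 0.05, and ranged from 299 to 427 when 1 liver was left out. Quantile normalization split the calls into 167 higher and 169 lower, against 219 and 130. For the B lineage lists, 6 became 0 with an adjusted p, and 3 to 9 with 1 liver left out, the 3 being without *L2aKO* replicate 2. Without *2afl/fl* replicate 2, 2 genes had an adjusted p under 0.05. *Jchain* ranged up to 0.36 and turned negative without *2afl/fl* replicate 3 (-0.0029), *L2aKO* replicate 2 (-0.025) or *L2aKO* replicate 3 (-0.0038). *Ms4a1* ranged from 0.51 (without *2afl/fl* replicate 1) to 1.15. *Ly6d* ranged from 0.51 to 1.75. With 1 liver left out, the criterion held in 7 of 8 fits for *Syk*, 6 for *Ikzf1*, 5 for *Mybl1* and 3 each for *Cxcr5*, *Cd27* and *Cxcl13*. With the replicate number as a replicate block, 359 genes met the criterion (210 higher, 149 lower) and 8 of the B lineage lists (6 higher, 2 lower). Correlations of same-numbered livers were 0.04, -0.21, 0.05 and 0.13, and those of differently numbered livers ran from -0.20 to 0.22. With both spread about 0, these values cannot show whether the numbers pair the livers. Depth limits these genes, since *Ms4a1* had 45 reads over all *2afl/fl* livers and *Cd79a* had 41, and livers of 1 genotype also varied beyond counting error for *Jchain* (3.77 and 6.03 times).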
